A study of Mus musculus with 36 samples.

Results

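Thbs1 encodes thrombospondin 1, and its transcript was followed in mouse embryonic stem cells (mESCs) across substrates of different stiffness and across media. The gene is 1 of 49671 in the count table and 1 of 17702 that had enough counts to be tested. It was selected on its lower level on soft than on stiff hydrogels, so those differences are given as a description with no test, and the tests below are of plastic, of LIF, of PD03, of time and of whether the substrate difference depends on them.

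The cells carried the label 129m wt, a wild-type genotype shared by all 36 libraries, and grew on fibronectin-coated StemBond polyacrylamide hydrogels, soft or stiff, or on tissue culture plastic. At 24 h, soft and stiff gels were sampled in serum + LIF. At 48 h, both gels were sampled in 4 media, namely serum with LIF, with PD03, with both or with neither, and plastic was sampled in serum + LIF. LIF is the cytokine that sustains self-renewal through STAT3, and PD03 is an inhibitor of the kinase MEK that stops ERK from being activated. Each of 10 groups had 3 libraries and soft gels in serum + PD03 had 6. Nothing in the labels says that libraries of a group came from separate cultures, so p-values measure the spread between these libraries, which may be technical.

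Thrombospondin 1 is a large secreted matricellular protein, a class that sits in the matrix and signals to cells without being a structural fibre. It binds integrins, CD47, CD36 and the LRP1 and calreticulin pair at the cell surface, and it can release active TGF-β from its latent complex. In many adherent cells its gene responds to serum, to TGF-β and to the actin-sensitive regulators SRF and YAP. The other members of the family are Thbs2, Thbs3, Thbs4 and Comp.

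Thbs1 (ENSMUSG00000040152) lies on chromosome 2 of GRCm38 (mm10), from 118111876 to 118127133 on the plus strand. Its coding transcript has 22 exons, 5848 bases and a coding sequence of 3513 bases. Another annotated transcript holds 2 exons and 659 bases and is annotated as a retained intron. The table counts reads per gene, so transcripts cannot be told apart. Gm29233, a long noncoding RNA on the minus strand, shares 208 exon bases with Thbs1 and had 2 counts over all libraries together. Whether the counting used strand is not given in the sources used here.

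Libraries held between 10405696 and 26635239 counts. Thbs1 had between 363 and 3442 counts in a library, which corresponds to a counting error (coefficient of variation) between 1.70% and 5.25%. The 5 embryonic stem cell markers Pou5f1, Sox2, Nanog, Esrrb and Zfp42 summed to at least 1657 CPM, the count scaled to the size of the library, in every library, as the labelled cell type would have. Sample descriptions carry 1 of 3 library identifiers, called pools here. All 24 h and plastic libraries and 1 stiff 48 h library in serum + LIF were in pool 1. All other stiff 48 h libraries and 2 of the soft libraries in serum + PD03 were in pool 2, and the remaining soft 48 h libraries were in pool 3. At 48 h, soft against stiff is therefore nearly pool 3 against pool 2, while at 24 h soft and stiff share a pool.

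The level of Thbs1 was highest on stiff gels at 24 h and on plastic, and lowest on soft gels at 48 h. Over libraries it ranged from 25.6 to 149 CPM, a 5.83-fold range, and its mean over all libraries was 64.2 CPM, above that of 80.5% of the genes tested. Between the highest and the lowest group mean the ratio was 4.98.

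**Figure D1:**
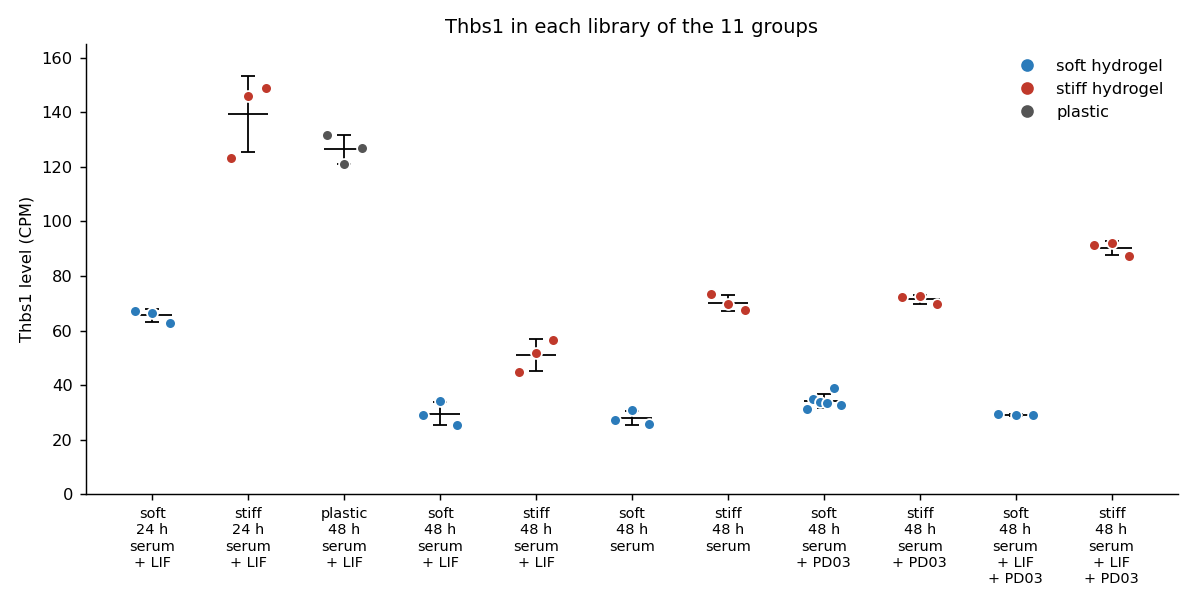
Thbs1 level in CPM (vertical axis) in every library (points) of the 11 groups (horizontal axis), with the group mean and SD as a bar and whiskers and colour for the substrate. In each medium and time the soft libraries sit below the stiff ones, and the soft 48 h groups lie between 25.6 and 39.0 CPM whatever the medium.

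On stiff gels at 24 h in serum + LIF, the 3 libraries had 123, 146 and 149 CPM (139 ± 14.0, mean ± SD, n = 3). On soft gels at 24 h they had 67.3, 66.6 and 62.8 CPM (65.6 ± 2.41, n = 3). The lowest stiff library stood 56.1 CPM above the highest soft one, and the soft level was 46.9% of the stiff level. Of all genes tested, 17.1% had no overlap between these 6 libraries.

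At 48 h in the same medium, stiff libraries had 45.0, 51.7 and 56.7 CPM (51.1 ± 5.87, n = 3). Soft libraries had 29.2, 34.2 and 25.6 CPM (29.6 ± 4.31, n = 3), and plastic libraries had 132, 121 and 127 CPM (127 ± 5.30, n = 3). The 3 substrates did not overlap, with soft lowest and plastic highest, and the gap between soft and stiff, 10.8 CPM, was the narrowest of the 5 matched pairs. Soft and stiff libraries of this medium did not overlap for 14.9% of all genes.

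In serum alone, stiff libraries had 73.4, 69.8 and 67.6 CPM (70.2 ± 2.93, n = 3) and soft libraries had 27.2, 30.9 and 25.8 CPM (28.0 ± 2.65, n = 3). In serum + PD03, stiff libraries had 72.2, 72.7 and 69.6 CPM (71.5 ± 1.64, n = 3), and the 6 soft libraries ran from 31.3 through a median of 33.8 to 39.0 CPM (34.3 ± 2.61, n = 6). Neither pair overlapped, as held for 20.4% of all genes in serum and 11.6% in serum + PD03. Serum and serum + PD03 gave stiff libraries of nearly the same level.

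In serum + LIF + PD03, stiff libraries had 91.3, 92.0 and 87.3 CPM (90.2 ± 2.52, n = 3), and soft libraries had 29.6, 28.9 and 28.9 CPM (29.2 ± 0.394, n = 3). This was the widest gap between soft and stiff, 57.7 CPM between the nearest libraries, in a medium where 24.8% of all genes had no overlap.

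Ordered by mean, the groups ran from stiff 24 h and plastic, which overlapped each other, to stiff gels in serum + LIF + PD03, then stiff gels in serum with and without PD03, which also overlapped. Soft gels at 24 h followed, with a highest library of 67.3 CPM against 67.6 CPM for the lowest stiff library in serum. Stiff gels at 48 h in serum + LIF came next. The 4 soft 48 h groups closed the order, each overlapping its neighbour. Thus the level on stiff gels varied more with the medium, with a ratio of 1.76 between the highest and lowest of the 4 media means, while on soft gels the same ratio was 1.23.

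Expressed as log2 differences of soft minus stiff, the values that chose the gene were -1.09 ± 0.07 (SE) at 24 h, -0.79 ± 0.08 in serum + LIF at 48 h and -1.33 ± 0.08 in serum. With PD03 they were -1.06 ± 0.07 without LIF and -1.63 ± 0.08 with it. The stiff level was thus between 1.73 and 3.09 times the soft level. Genes with adjusted p under 0.05 in either direction made up 3.55%, 0.78%, 4.85%, 5.55% and 7.61% of those tested in these comparisons, in the same order. When the model held pool as a term, over all 45 ways in which columns could belong to pools, the 48 h value in serum + LIF lay between -1.01 and -0.53 and the 24 h value stayed at -1.09.

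Plastic is the rigid reference of the study, and it gave the largest difference among those that did not choose the gene, although it uses the same soft and stiff libraries. Thbs1 on soft gels at 48 h in serum + LIF was at 23.4% of its level on plastic, a log2 difference of -2.09 ± 0.08 (edgeR adjusted p = 8.34e-26). No gene had a smaller p in that comparison, in which 11.8% of genes passed. The low level in these soft libraries also entered the choice of the gene, so this rank is a description. On stiff gels it was at 40.6% of the plastic level, a log2 difference of -1.30 ± 0.07 (edgeR adjusted p = 1.71e-18), where 5.54% of genes passed. Plastic libraries were all in pool 1, and with pool as a term the soft value lay between -2.51 and -1.68 and the stiff value between -1.49 and -1.16, all past the threshold.

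Thbs1 fell between 24 h and 48 h on both gels. In serum + LIF the log2 difference of 48 h minus 24 h was -1.14 ± 0.08 on soft gels (edgeR adjusted p = 6.445e-15), where 24.4% of genes passed. On stiff gels it was -1.44 ± 0.07 (edgeR adjusted p = 2.256e-20), where 25.6% of genes passed. The level at 48 h was 45.3% of that at 24 h on soft and 36.8% on stiff gels. The difference between these changes, 0.30 ± 0.11, did not pass (95% confidence interval 0.08 to 0.52, edgeR adjusted p = 0.2882), in a comparison where 0.254% of genes did. The 24 h libraries were all in pool 1 and the 48 h libraries nearly all in others. With pool as a term the change on soft gels lay between -1.56 and -0.73.

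LIF moved Thbs1 on stiff gels, and in opposite directions with and without PD03. Without PD03, adding LIF lowered it from 70.2 to 51.1 CPM (log2 difference -0.46 ± 0.08, edgeR adjusted p = 0.0001465), and 1.41% of genes passed. With PD03, adding LIF raised it from 71.5 to 90.2 CPM (log2 difference 0.33 ± 0.07, edgeR adjusted p = 0.01182), and 0.514% of genes passed. All 6 libraries of this second comparison were in pool 2. Leaving out 1 library ended its call in 4 of 6 fits, with an adjusted p of up to 0.1068.

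On soft gels LIF gave no call. The log2 difference was 0.08 ± 0.09 without PD03 (95% confidence interval -0.09 to 0.26, edgeR adjusted p = 0.881), where 0.0169% of genes passed. With PD03 it was -0.23 ± 0.07 (95% confidence interval -0.38 to -0.08, edgeR adjusted p = 0.2906), where 0.107% of genes passed.

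PD03 moved Thbs1 on stiff gels with LIF and, by less, on soft gels without LIF. On stiff gels in the presence of LIF it raised the level 1.76-fold, a log2 difference of 0.81 ± 0.07 (edgeR adjusted p = 1.769e-13). On stiff gels without LIF the difference was 0.02 ± 0.07 (95% confidence interval -0.13 to 0.17, edgeR adjusted p = 0.8143), within a single pool. On soft gels it was 0.29 ± 0.07 without LIF (edgeR adjusted p = 0.0006173) and -0.02 ± 0.09 with LIF (95% confidence interval -0.20 to 0.15, edgeR adjusted p = 0.8392). PD03 changed much of the transcriptome, with 56.2% of genes past the threshold on stiff gels with LIF, 55.8% on stiff gels without LIF, 57.5% on soft gels without LIF and 54.4% on soft gels with LIF, so a call in these comparisons is common. The same holds for the PD03 calls of other genes given below.

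**Figure D2:**
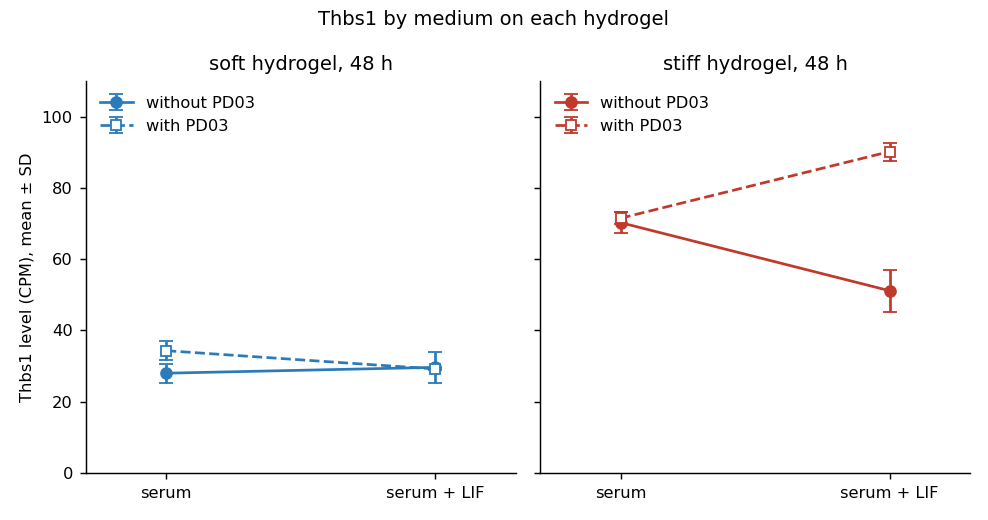
Mean Thbs1 level in CPM (vertical axis, whiskers SD) at 48 h in serum and in serum + LIF (horizontal axis), without PD03 (filled circles) and with PD03 (open squares), on soft (left) and stiff (right) gels. On stiff gels the lines part from 70.2 and 71.5 CPM to 51.1 and 90.2 CPM when LIF is added, while on soft gels all 4 means lie between 28.0 and 34.3 CPM.

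The dependence on medium was tested as interactions. On stiff gels the effect of LIF with PD03 minus its effect without PD03 was 0.79 ± 0.11 on the log2 scale (edgeR adjusted p = 6.492e-06), where 1.09% of genes passed. On soft gels the same difference was -0.31 ± 0.11 (95% confidence interval -0.54 to -0.09, edgeR adjusted p = 0.5393), where 0.0226% of genes passed. The soft value minus the stiff value, the interaction of substrate, LIF and PD03, was -1.10 ± 0.15 (edgeR adjusted p = 8.15e-05), with the smallest p of all genes in a comparison that 10 genes, 0.0565%, passed.

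Taken by factor, the effect of PD03 with LIF on soft gels minus that on stiff gels was -0.84 ± 0.11 (edgeR adjusted p = 3.363e-06), where 1.07% of genes passed. Without LIF it was 0.27 ± 0.10 (95% confidence interval 0.06 to 0.48, edgeR adjusted p = 0.265), where 0.797% passed. The same substrate difference for LIF was 0.54 ± 0.12 without PD03 (edgeR adjusted p = 0.04119), where 0.0847% of genes passed. With PD03 it was -0.57 ± 0.10 (edgeR adjusted p = 0.02548), where Thbs1 was the only gene to pass, 0.00565%. Flnc, among the genes most like Thbs1 below, fell just short there, with -0.47 ± 0.09 (edgeR adjusted p = 0.05211). Phldb2 and Lpp, also among them, had -0.38 ± 0.14 and -0.35 ± 0.09 (edgeR adjusted p = 0.8232 and 0.4057). Without PD03 the gap in Thbs1 between gels was narrower with LIF than without it, and with PD03 it was wider with LIF. These LIF calls were near the threshold: without PD03 the call held in 4 of 12 fits that left out 1 library and in 15 of 45 assignments to pools, and with PD03 in 7 of 15 and 29 of 45. The interactions of substrate with PD03 in the presence of LIF and of all 3 factors held in every such fit. Soft and stiff levels that enter these interactions also chose the gene. Their dependence on medium was not a reason for the choice, but earlier results of these data were known when it was made. The interaction p-values are therefore not those of a gene named before the data were seen.

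**Figure D3:**
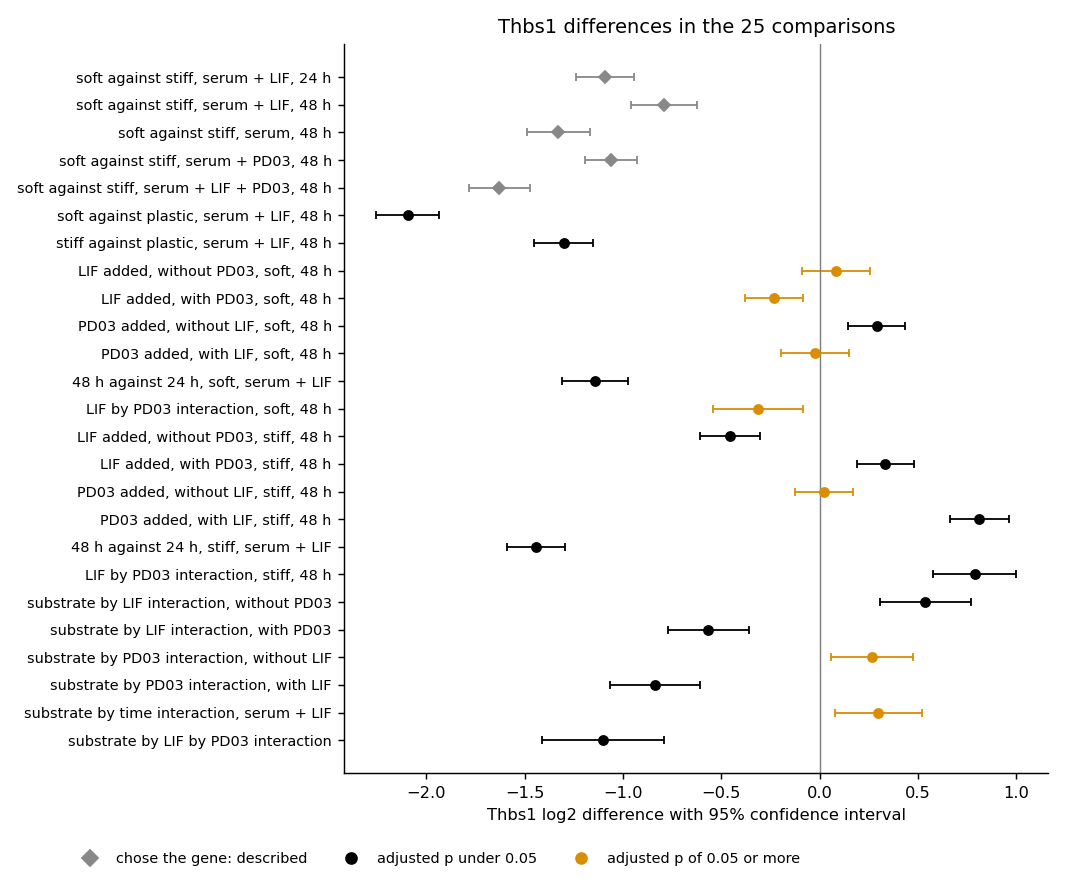
Log2 difference of Thbs1 (horizontal axis, whiskers 95% confidence interval) in each of the 25 comparisons (vertical axis). Grey diamonds are the soft minus stiff values that chose the gene, black circles had an edgeR adjusted p under 0.05 and orange circles did not. Values run from -2.09 for soft minus plastic to 0.81 for PD03 on stiff gels with LIF.

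Within its own family Thbs1 was the main transcript. Per kilobase of exon, its mean level was 10.6 CPM, against 1.58 for Thbs3, 0.330 for Thbs2, 0.219 for Comp and 0.163 for Thbs4. Of the summed level per kilobase of the 5 family members, Thbs1 made up between 60.4% (soft gels in serum, 48 h) and 91.2% (stiff gels in serum + PD03). None of the 4 other members passed in any comparison of soft with stiff gels or of gels with plastic. Under PD03 Thbs3 and Thbs4 fell in all 4 PD03 comparisons and Thbs2 in 3 of them, with log2 differences from -1.78 to -1.32 for Thbs3. Thbs2, Thbs4 and Comp had mean levels of at most 2.31 CPM. Their soft minus stiff estimates, none past the threshold, were spread widely on the log2 scale. They ran from -1.57 to 0.09 for Comp, from -1.11 to 0.63 for Thbs4 and from -0.85 to -0.02 for Thbs2. Changes of such a size may therefore go unseen at this depth.

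Most of the receptors through which thrombospondin 1 acts were expressed. Cd36, the scavenger receptor that mediates its antiangiogenic action, had at most 0.296 CPM and was not tested. Itga4 was tested but low, with a mean of 0.108 CPM per kilobase and at most 2.59 CPM in a library. Per kilobase, the mean level was 209 CPM for Calr (calreticulin), 45.8 for Itgb1 (the integrin β1 chain), 17.8 for Itga3 (its α3 partner), 6.14 for Itgav (integrin αV), 5.96 for Lrp1 (an endocytic receptor) and 1.22 for Cd47 (the signalling receptor for the protein's C terminus). On soft gels 3, 1, 3, 2 and 2 of the 10 receptors tested were lower, in the order of comparisons above, and none was higher. They were Itga3 in all 5 comparisons, Itgb1 in 4 and Itgav in 2. Of all genes, 3.55%, 0.78%, 4.85%, 5.55% and 7.61% passed there in either direction. The log2 difference of Itga3 was -0.65 ± 0.07 at 24 h, and with LIF and PD03 it was -0.42 ± 0.07 (edgeR adjusted p = 3.531e-10 and 1.989e-05).

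Under PD03 the receptors moved in both directions, in comparisons where 54.4% to 57.5% of all genes passed. Calr, Itgb3, Itgav, Itga6, Lrp1 and Cd47 rose in all 4 PD03 comparisons. Itga3 and Cacna2d1 fell in all 4, and Itgb1 fell in 3. Itgav, for example, rose by 1.05 ± 0.06 on the log2 scale on stiff gels with LIF (edgeR adjusted p = 1.705e-20), and by 0.86 ± 0.06 on stiff gels without LIF, where Thbs1 gave 0.02. Itgb1 was the only receptor to pass in a substrate by medium interaction, with -0.29 ± 0.08 for PD03 with LIF (edgeR adjusted p = 0.04886).

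**Figure D4:**
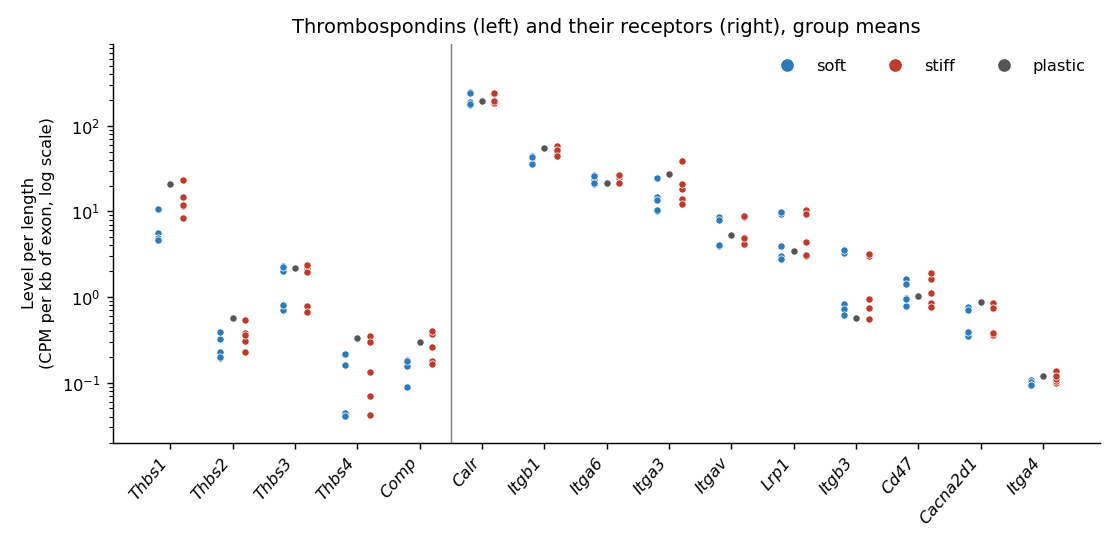
Mean level per group in CPM per kilobase of exon (vertical axis, log scale) of the 5 thrombospondin genes and of the 10 receptor genes tested (horizontal axis), with colour for the substrate. Thbs1 stands above the rest of its family in every group.

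Thrombospondin 1 can activate latent TGF-β, so the genes of that system were listed with it. Of 14 tested genes, Tgfb2, a TGF-β ligand, was lower on soft gels in all 5 comparisons, and from 1 to 4 of the 14 passed in each, none of them higher. Between 0.78% and 7.61% of all genes passed in these comparisons. Tgfb2 had 14.0 ± 1.97 CPM on stiff and 6.50 ± 0.877 CPM on soft gels at 24 h (n = 3 each), a log2 difference of -1.10 ± 0.14 (edgeR adjusted p = 6.536e-08). In serum + LIF + PD03 it had 19.5 ± 1.66 and 7.74 ± 1.32 CPM, a log2 difference of -1.33 ± 0.12 (edgeR adjusted p = 9.052e-12). Like Thbs1, Tgfb2 fell with LIF on stiff gels without PD03 (log2 difference -0.64 ± 0.14, edgeR adjusted p = 0.006305), and its LIF by PD03 interaction on stiff gels was 0.85 ± 0.18 (edgeR adjusted p = 0.006784). Unlike Thbs1 it rose with PD03 also on stiff gels without LIF, by 0.74 ± 0.12 (edgeR adjusted p = 1.198e-06). Tgfb1 and Ltbp4, which encode another ligand and a protein that stores latent TGF-β in the matrix, fell in all 4 PD03 comparisons. The list as a whole moved both ways with PD03, with 7 to 8 of the 14 higher and 2 to 3 lower in each comparison, and Tgfb2, Ltbp1, Tgfbr1, Tgfbr3, Furin and Lrrc32 rose in all 4. Of all genes, 54.4% to 57.5% passed in these comparisons in either direction, so such calls are common.

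Of 5 target genes of TGF-β, no more than 2 were lower on soft than on stiff gels in any comparison, and Tgfbi was higher in 1. Smad7 and Pmepa1, both inhibitors of the pathway that it induces, passed in none of the 5. With PD03 the feedback inhibitors did not move one way: Skil fell, and Smad7 and Pmepa1 rose, in all 4 comparisons.

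Other matricellular genes moved with the substrate in both directions. Of 9 tested, 4, 1, 3, 3 and 4 were lower on soft gels and 2, 1, 1, 1 and 0 were higher. Of all genes, 3.55%, 0.78%, 4.85%, 5.55% and 7.61% passed there in either direction. Ccn1, a secreted integrin ligand and YAP target, was lower in all 5, with log2 differences from -0.62 to -0.40. Spp1, which encodes osteopontin, was higher on soft gels in 4, with 0.35 ± 0.06 in serum (edgeR adjusted p = 1.899e-05). On stiff gels 5 of 9 were lower than on plastic, namely Ccn1, Ccn2, Ccn4, Sparc and Tnc, where 5.54% of all genes passed.

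Target genes of SRF and YAP, transcription regulators sensitive to actin tension, moved on the gels as a broad group. Some of them had been shown by the study as examples from these samples, so their direction is not independent evidence. Of 19 tested, 17, 5, 15, 17 and 16 were lower on soft gels and none was higher, with medians of -0.48, -0.18, -0.36, -0.47 and -0.61 on the log2 scale, against medians over all genes between -0.00278 and 0.0103. Of all genes, 3.55%, 0.78%, 4.85%, 5.55% and 7.61% passed in these comparisons in either direction. All 19 were lower on soft and on stiff gels than on plastic, with medians of -1.10 and -0.83. There 11.8% and 5.54% of all genes passed. From 14 to 18 of the 19 rose with PD03, in comparisons where 54.4% to 57.5% of all genes passed in either direction. Ajuba fell in all 4 of those comparisons, and Flnc fell on soft gels with LIF. Among the 19, 15 on soft and 18 on stiff gels were lower at 48 h than at 24 h, where 24.4% and 25.6% of all genes passed in either direction. In the medium interactions of Thbs1 they passed less widely: 11 of 19 had a higher LIF by PD03 interaction on stiff gels, 7 a lower substrate by PD03 interaction with LIF, and 2, Acta2 (smooth muscle actin) and Flnc (filamin C, an actin crosslinker), a lower interaction of substrate, LIF and PD03. The shares of all genes that passed were 1.09%, 1.07% and 0.0565%.

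Flnc was called in all 3 of these interactions. It also rose with LIF in the presence of PD03 on stiff gels, by 0.39 ± 0.07 (edgeR adjusted p = 0.000635), and was the only gene of the 19 to pass there. Its interaction of substrate, LIF and PD03 was -0.80 ± 0.14 (edgeR adjusted p = 0.003928). Acta2, by contrast, rose with PD03 on every gel and medium, by 2.58 ± 0.11 on stiff gels without LIF (edgeR adjusted p = 5.936e-26).

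Among 11 genes described as regulators of Thbs1, Jun, a component of the AP-1 transcription factor, was the only one lower on soft gels in all 5 comparisons, with log2 differences from -0.74 to -0.41. Myc was lower in 2 of the 5 and Wwtr1 (TAZ, the partner of YAP) in 1. None of the other listed regulators, Srf and Yap1 among them, passed in any. Of all genes, 0.78% to 7.61% passed in these comparisons in either direction. Under PD03 Jun, Srf, Wwtr1, Yap1 and Usf2 rose, and Myc, Egr1, Id1 and Mir17hg, the host transcript of a microRNA cluster, fell, in all 4 comparisons. The action of PD03 itself was seen in all 8 genes listed as ERK targets, which fell in all 4 comparisons with medians between -3.09 and -2.69 on the log2 scale. On soft gels at most 2 of these 8 were lower than on stiff gels, where 0.78% to 7.61% of all genes passed. Dusp4 was lower in 3 of the 5 comparisons and Dusp6 in 1, and Spry2 was higher in 1.

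Genes were then ranked by how closely their log2 level followed that of Thbs1, by Pearson correlation over the 11 group means among 10474 genes with a mean of at least 5 CPM. The values share libraries, depth and culture conditions, and the ranking is a description. The closest were Arl4c (r = 0.987), Phldb2 (0.984), Lpp (0.981), Axl (0.981), Flnc (0.976), Grip1 (0.975), Map3k20 (0.970) and Crybg1 (0.965). Over all genes the median r was -0.05, and 40 genes had r of at least 0.9. Arl4c, Phldb2, Lpp, Axl and Flnc were also among the 8 closest when the 36 libraries replaced the group means. Phldb2, which encodes a protein that anchors microtubules at the cell cortex, had 55.4 ± 5.91 CPM on stiff gels at 24 h, 54.7 ± 2.65 on plastic and 16.5 ± 2.53 on soft gels in serum. The order of its 11 group means followed that of Thbs1 closely, with a Spearman rho of 1.

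**Figure D5:**
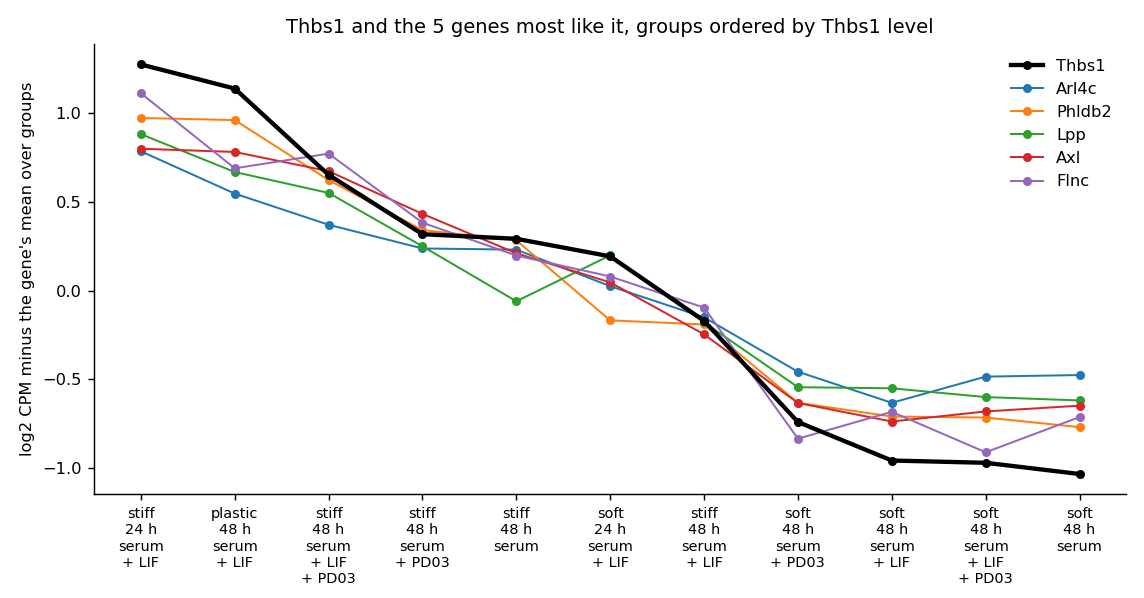
Group mean of log2 CPM minus the gene's own mean over groups (vertical axis) for Thbs1 (thick black line) and for the 5 genes most like it by both rankings, with the 11 groups in order of falling Thbs1 level (horizontal axis). All 6 lines fall from the stiff 24 h group to the soft 48 h groups, and Thbs1 has the widest range.

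The genes nearest to Thbs1 on the chromosome were also examined. Of those tested, Fam98b and Rasgrp1 at lower and Fsip1 and Eif2ak4 at higher coordinates were not called in any of the 5 comparisons of soft with stiff gels. Fsip1 lies 3291 bases beyond the end of Thbs1, on the opposite strand, and at a mean of 0.718 CPM its soft minus stiff difference at 24 h was 0.01 ± 0.47 on the log2 scale, so a change of moderate size was not detectable at this depth.

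Markers of other cell types were measured beside these results, since in bulk RNA fewer cells of a type and less RNA per cell cannot be told apart. The summed level of 10 fibroblast markers followed the order of Thbs1 in some groups and not in others. It was 93.7 to 103 CPM on stiff and 67.9 to 81.9 CPM on soft gels at 24 h, 115 to 123 CPM on plastic, and 137 to 143 CPM on stiff against 75.9 to 91.3 CPM on soft gels in serum + LIF + PD03. In serum + LIF at 48 h it was 82.4 to 90.7 CPM on stiff and 77.7 to 84.4 CPM on soft gels, which overlap. On soft gels the sum was thus no lower at 48 h than at 24 h, while Thbs1 was lower. The members differed, however: from 24 h to 48 h Fbln1 and Thy1 rose on both gels. Col1a2 fell on both, Col1a1 fell on 1, and the other tested members passed on neither. On stiff gels without LIF the sum was 99.1 to 104 CPM in serum and 121 to 133 CPM with PD03, where Thbs1 did not pass the test. The members also split over the 4 PD03 comparisons, where 54.4% to 57.5% of all genes passed. Col1a1, Pdgfrb and Postn rose in all 4 and Col1a2 in 3. Thy1 and Dcn fell in all 4 and Fbln1 in 1, and Col3a1 passed in none. Most of the sum came from Col1a1, a fibrillar collagen with 76.4 ± 2.39 CPM on stiff and 28.5 ± 6.20 CPM on soft gels in serum + LIF + PD03 (n = 3 each), and from Fbln1. Between soft and stiff gels Col1a1 was lower on soft in all 5 comparisons and Col1a2 in 3, and the other 6 tested markers passed in none. The fibroblast markers Lum, Twist2 and Dcn were at 0 in 24, 9 and 3 of the 36 libraries and reached at most 0.190, 0.520 and 1.73 CPM. The part of such cells in the Thbs1 values was not tested.

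On stiff gels without LIF all 5 trophoblast markers rose with PD03, from a sum of 49.4 to 56.1 CPM to a sum of 184 to 193 CPM, where the log2 difference of Thbs1 was 0.02. On stiff gels the 6 primitive endoderm markers summed to 44.8 to 53.8 CPM in serum and 114 to 120 CPM in serum + PD03. Most of the latter came from Dab2. The members moved in both directions over the 4 PD03 comparisons, where 54.4% to 57.5% of all genes passed. Dab2 rose in all 4 and Gata6 in 2. Sox7 and Foxa2 fell in all 4 and Gata4 in 3, and Sox17 passed in none. Mesoderm markers summed to at most 20.4 CPM and endothelial markers to at most 25.4 CPM in any library.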

How the data were processed

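RNA was measured in 36 libraries of mESCs in 11 groups. The deposited values are raw read counts per gene: the authors aligned reads with STAR 2.5.2a to mm10 and counted them with HTSeq, and libraries were made with a NuGen kit per the labels. Columns of the table name the group but no replicate, so library numbers are names only and the 2 groups that span pools could not be split by pool. Counts were fitted with edgeR 4.0.16 (R 4.3.3, limma 3.58.1): genes passing filterByExpr (17702, 99.9% of counts), TMM scaling, 1 mean per group over all libraries, the quasi-likelihood test and Benjamini-Hochberg adjustment over all tested genes with a threshold of 0.05. CPM used TMM-scaled totals, and levels per kilobase used the summed exon length. The scripts were checked on simulated data. Alternatives were RLE scaling, total counts, no filter, DESeq2 1.42.0, the groups of each comparison alone, pool as a term (45 assignments) and leaving out each library.

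Thbs1 and the gene lists were chosen with earlier results of these data known. Thbs1 is given in every library and comparison. Any thrombospondin or receptor gene, any regulator, and any gene of another list past the threshold in at least 1 comparison could be named, as could the 8 genes most like Thbs1 (log2 CPM, prior count 2, mean of at least 5 CPM) and the 2 nearest tested genes on either side. The values of 1 listed gene are not reported here.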

Additional observations from a re-analysis of the deposited data

Results flagged for a closer look

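The effect of a medium component on Thbs1 differed between contexts in 5 tests, each of the difference itself by edgeR's quasi-likelihood test. On stiff gels the effect of LIF with PD03 minus that without was 0.79 on the log2 scale. The effect of LIF on soft minus stiff gels was 0.54 without PD03 and -0.57 with PD03. The effect of PD03 with LIF on soft minus stiff gels was -0.84. The interaction of substrate, LIF and PD03 was -1.10. No library of the group of 6 stood apart from the rest of its group in Thbs1, and groups of 3 were not examined in this way.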

How the results depend on the processing

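Over 406 recomputed values of the 25 comparisons, 374 stayed on the same side of the threshold, or for the 5 described values moved by less than the spread between replicates, and no value past the threshold changed sign. Of those that did not pass, 3 crossed 0 when 1 library was left out: LIF without PD03 on soft gels (-0.04 to 0.18), PD03 with LIF on soft gels (-0.12 to 0.10) and PD03 without LIF on stiff gels (-0.02 to 0.06). With pool as a term, the soft minus stiff value lay between -1.01 and -0.53 in serum + LIF at 48 h, between -1.47 and -1.15 in serum, between -1.16 and -0.94 in serum + PD03 and between -1.77 and -1.45 in serum + LIF + PD03. The effect of LIF with PD03 on stiff gels ranged from 0.32 to 0.36 when 1 library was left out, and its call was lost without library 1 or 2 in serum + LIF + PD03 or library 2 or 3 in serum + PD03.

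The substrate by LIF interaction without PD03 was 0.49 with total counts only (edgeR adjusted p = 0.0681), 0.54 with only its own groups (edgeR adjusted p = 0.1319) and 0.46 at the lowest with pool as a term (edgeR adjusted p = 0.2414). It ranged from 0.44 to 0.63 when 1 library was left out, and its call was lost without libraries 1 or 2 of stiff or of soft gels in serum + LIF, libraries 1 or 2 of stiff gels in serum, or libraries 1 or 3 of soft gels in serum. With PD03 it was -0.51 at the highest with pool as a term (edgeR adjusted p = 0.09628) and ranged from -0.59 to -0.52 when 1 library was left out. That call was lost without libraries 1 or 2 of either gel in serum + LIF + PD03, libraries 2 or 3 of stiff gels in serum + PD03, or libraries 2 or 5 of soft gels in serum + PD03. The cause was not tested.

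Between the 2 rankings of genes like Thbs1, 5 of 8 genes were shared. No paired analysis was possible because the columns carry no replicate numbers. Counting error of Thbs1 was at most 5.25% and did not limit these comparisons, whereas soft and stiff gels at 48 h nearly coincide with pools and cannot be fully told apart from them.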
